A study of Homo sapiens with 3 samples.

Results

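The HOX cluster genes encode homeodomain transcription factors, and here they are every gene whose RefSeq symbol is HOXA, HOXB, HOXC or HOXD followed by a number. They were found by matching the transcript accession of each array probe, without its version, to RefSeq. Of the 39 such genes in the reference, 38 had a matched probe, out of 19699 genes with a probe in all. HOXA6 had none and was not analysed. The study examined the human pancreatic ductal carcinoma line PANC-1, an established cell line, on Agilent 1-colour arrays of control cells, cells given cantharidin (CAN) and cells given okadaic acid (OA), 1 array for each. Control cells were untreated, and the labels give 24 h of treatment at 20 µM for each of the 2 agents. Cantharidin is a terpenoid from blister beetles and okadaic acid a polyether toxin from marine dinoflagellates, and both inhibit protein phosphatase 2A (PP2A). Since each group is a single array, none of the differences has a replicate check and none could be tested.

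HOX genes lie in 4 clusters, A to D, and within a cluster the genes run in the order in which they are used along the embryo's head-to-tail axis. Low-numbered (anterior) genes pattern the hindbrain and neck, and high-numbered (posterior) genes the lower trunk, limbs and genitalia. The proteins bind DNA together with PBX, MEIS and PKNOX cofactors, Polycomb complexes keep silent clusters closed, trithorax proteins keep active ones open, and retinoic acid induces the anterior genes in embryos. Many adult tissues and carcinomas keep a regional set of HOX genes on.

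Most of the measured HOX genes were lower under CAN. Under OA the shares of HOX genes called higher and lower lay near those of all genes. Under CAN, 19 of 31 compared HOX genes were at least 1.5-fold lower and 4 at least 1.5-fold higher, with a median log2 difference of -0.92. Among all 16644 genes compared, 34.1% were lower and 27.5% higher, with a median of -0.16. Under OA, 8 of 29 HOX genes were lower and 9 higher, with a median of 0.37, beside 28.8% lower and 28.1% higher of 16166 genes and a median of 0.01. Set directly against CAN, OA cells had 21 of 31 HOX genes higher and 2 lower, with a median of 1.21. The background there was 29.5% higher and 22.3% lower of 16200 genes, with a median of 0.13. Each difference is between log2 processed intensities scaled to the 75th percentile of their array, and a gene entered a comparison if either of the 2 arrays showed its probe well above background. Without scaling, OA gave 15 HOX genes higher and 6 lower, and the median of all genes was then 0.26. The HOX median under OA was -0.13 among genes at least 3 times brighter than the lowest detected signal, a filter chosen after the data were seen. With normexp background correction the HOX medians were -0.57 for CAN, 0.0093 for OA and 0.43 for OA against CAN. It left 15 of 31 HOX genes higher in OA than in CAN cells, and 1 lower.

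**Figure D1:**
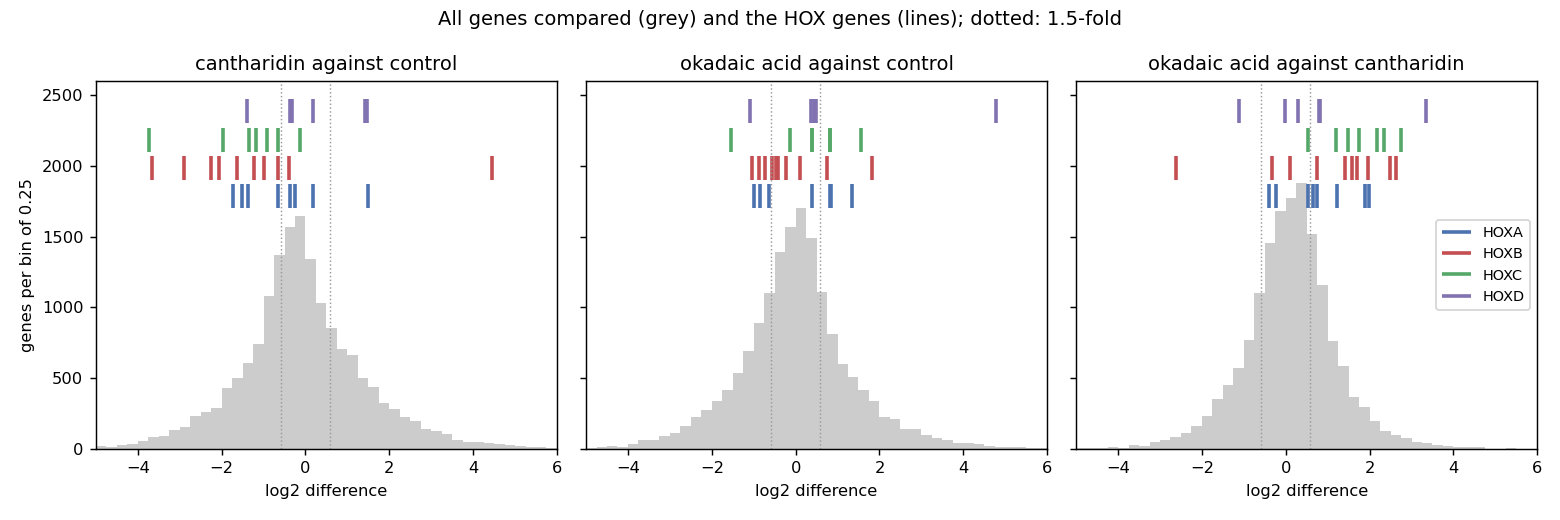
Log2 differences of all compared genes (grey histogram, genes per bin of 0.25, drawn from -5 to 6) and of the HOX genes (1 line per gene, coloured by cluster) in the 3 comparisons. The dotted lines mark 1.5-fold. Under cantharidin 19 of the 31 HOX lines lie left of the lower dotted line, and against cantharidin 21 of the 31 okadaic acid lines lie right of the upper one.

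Of the 38 HOX genes with a probe, 29 (76.3%) were well above background in control cells, 31 (81.6%) in CAN cells and 28 (73.7%) in OA cells. The same shares over all genes were 79.5%, 80.6% and 75.8%. Every HOXB gene with a probe was detected on all 3 arrays, as were 7 of 10 HOXA, 7 of 9 HOXC and 4 of 9 HOXD genes. The 7 genes not well above background on any array were HOXA7, HOXA13, HOXC11, HOXC12, HOXD4, HOXD12 and HOXD13. They include the last HOXA gene and the last pair of HOXD genes, which pattern the digits and genitalia. The last genes of the other clusters, HOXB13 and HOXC13, were detected on all 3 arrays. The lowest signal counted as well above background was 35.0 on the control, 21.9 on the CAN and 58.0 on the OA array, and no probe was saturated.

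Fixed markers of cell types were also read. Detection cannot settle identity here, since 79.5% of all genes were well above background in control cells. All 6 epithelial and ductal markers were well above background in control cells and 5 of 6 after each agent, the missing one being CDH1, the adherens junction protein E-cadherin. Of all genes, 34.1% were lower and 27.5% higher under CAN, and 28.8% lower and 28.1% higher under OA. Under CAN 3 of the 6 markers were lower, among them EPCAM (3.42-fold) and CDH1 (at least 6.34-fold). Only KRT18 was higher (1.99-fold), and the median log2 difference was -0.87. Under OA 3 were lower, EPCAM by 2.20-fold among them, and 2 higher, KRT18 by 2.29-fold among them, with a median of -0.48. Their summed intensity was 146484, 164597 and 269074 in control, CAN and OA cells, much of it from the keratin KRT18 at 70664, 127869 and 193320. All 4 leukocyte markers were detected on every array, with summed intensities of 6110, 6219 and 24569, and of these CD14 and CD68 were 3.65-fold and 3.62-fold higher under OA, while PTPRC, of all leukocytes, and CD3E, of T cells, stayed within 1.5-fold at -0.13 and 0.34. The fibroblast markers summed to 726, 274 and 204, with 3, 2 and 2 of 5 detected. The collagen gene COL1A1 gave most of the control sum, at 528 against 16.6 and 35.7, the last pair not well above background, and COL3A1 read 79.8, 195 and 60.2, or 2.69-fold higher under CAN and 1.58-fold lower under OA. In control, CAN and OA cells, 3, 3 and 2 of 4 acinar, 2, 3 and 2 of 4 endocrine, and 2, 2 and 2 of 3 endothelial markers were detected, with acinar sums of 275 to 381, endocrine sums of 1049 to 1177 and endothelial sums of 1315 to 2261. Their part in the HOX values was not tested. In bulk RNA a lower signal from fewer cells of a kind and from less RNA per cell cannot be told apart.

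**Figure D2:**
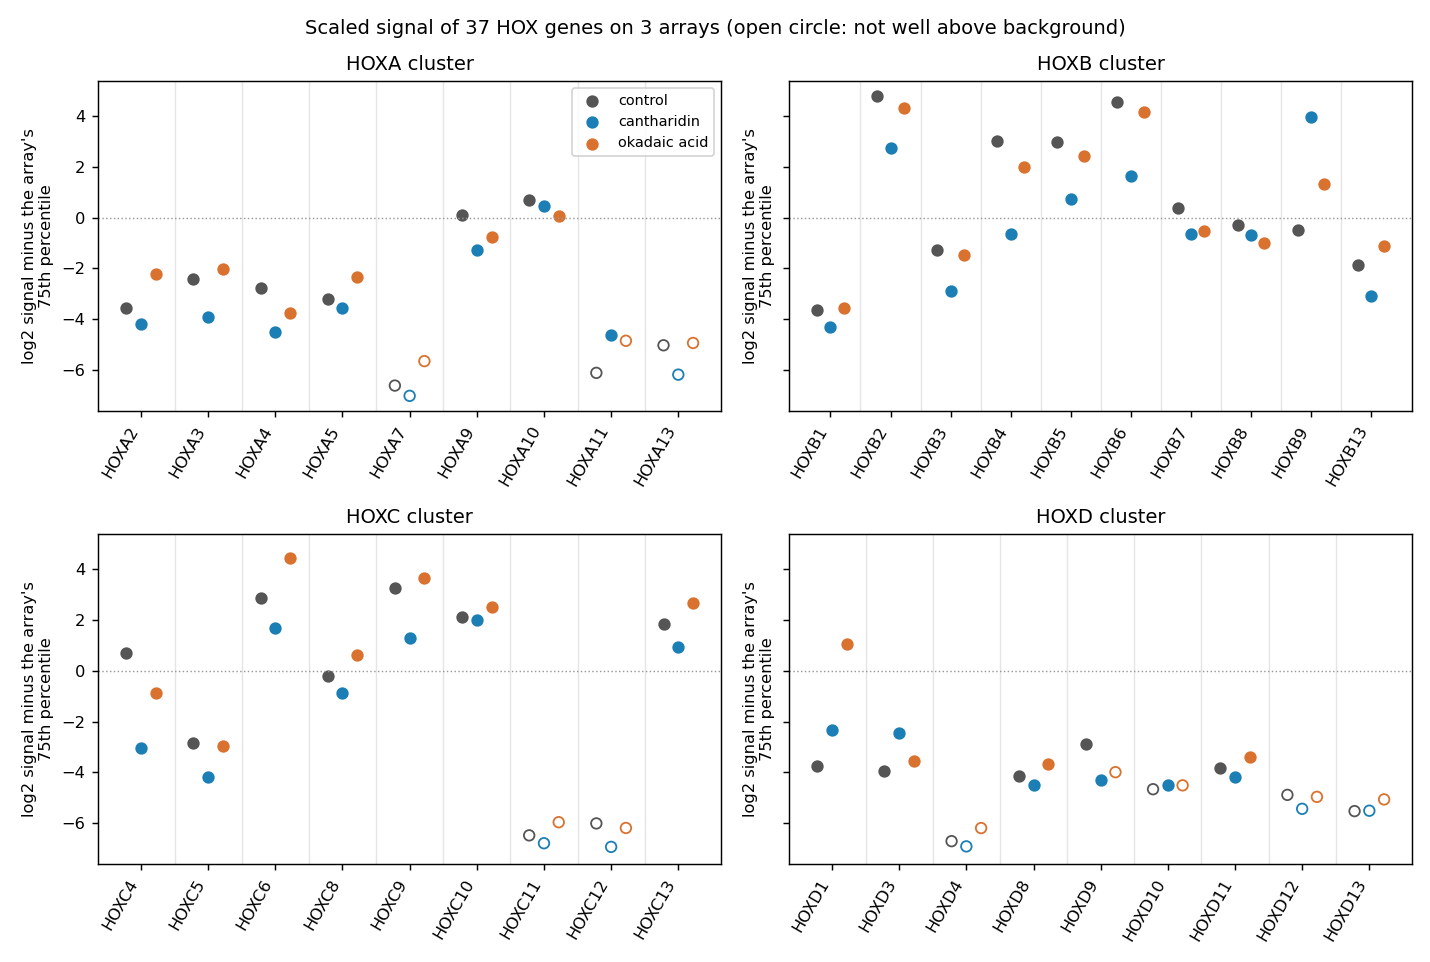
Log2 processed intensity minus the 75th percentile of the array, for 37 HOX genes in cluster order, with 1 point per array (grey control, blue cantharidin, orange okadaic acid) and open circles for signals not well above background. Points are to be compared within a gene, since probes differ in brightness. In HOXB2 to HOXB6 the blue point is the lowest of the 3, and in HOXB9 it is the highest.

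Start-site sequences of the reference are shown for 4 genes that differ in how they changed. HOXD1 and HOXD3 are neighbours that were both higher under CAN, HOXC4 shares its window with HOXC5 and both were lower, and HOXA2 was lower under CAN and higher under OA. Each window runs from 250 bases before to 50 bases after the annotated start, 5′ to 3′ on the strand of the gene, in RefSeq annotation of GRCh38.p14, and spans promoter and the first transcribed bases. Capitals mark matches, on either strand, to CCAAT (the CCAAT box), GGGCGG (the GC box, bound by Sp1), or TGATNNAT (a site of HOX and PBX dimers).
HOXD1, chr2:176188418-176188717, plus strand: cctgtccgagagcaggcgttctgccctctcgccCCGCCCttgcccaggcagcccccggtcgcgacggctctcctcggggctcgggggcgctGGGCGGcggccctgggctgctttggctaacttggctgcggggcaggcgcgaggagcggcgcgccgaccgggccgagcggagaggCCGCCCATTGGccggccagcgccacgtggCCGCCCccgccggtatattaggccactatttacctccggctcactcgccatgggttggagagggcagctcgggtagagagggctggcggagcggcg
HOXD3, chr2:176157057-176157356, plus strand: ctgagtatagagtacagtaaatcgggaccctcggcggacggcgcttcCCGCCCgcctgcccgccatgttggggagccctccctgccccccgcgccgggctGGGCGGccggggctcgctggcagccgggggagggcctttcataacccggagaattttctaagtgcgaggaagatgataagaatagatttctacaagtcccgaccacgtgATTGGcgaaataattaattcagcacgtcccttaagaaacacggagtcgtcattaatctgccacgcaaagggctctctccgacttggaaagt
HOXC4 and HOXC5, chr12:54016638-54016937, plus strand: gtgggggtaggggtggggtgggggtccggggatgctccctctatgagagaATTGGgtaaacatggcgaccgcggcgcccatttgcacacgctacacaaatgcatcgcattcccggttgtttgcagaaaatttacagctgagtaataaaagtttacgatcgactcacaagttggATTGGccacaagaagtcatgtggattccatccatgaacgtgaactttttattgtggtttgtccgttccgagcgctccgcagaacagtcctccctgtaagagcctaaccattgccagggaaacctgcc
HOXA2, chr7:27102634-27102933, minus strand: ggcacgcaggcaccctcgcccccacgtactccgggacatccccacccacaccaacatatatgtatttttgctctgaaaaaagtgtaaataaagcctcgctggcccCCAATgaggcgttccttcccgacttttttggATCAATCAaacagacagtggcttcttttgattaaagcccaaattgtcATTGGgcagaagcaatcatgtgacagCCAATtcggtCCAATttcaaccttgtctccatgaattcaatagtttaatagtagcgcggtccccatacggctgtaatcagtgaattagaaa

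The HOXD1 window held 4 GC boxes and 1 CCAAT box, and the HOXD3 window 2 GC boxes and 1 CCAAT box. The HOXC4 window held 2 CCAAT boxes and no GC box, and the HOXA2 window 4 CCAAT boxes and 1 HOX and PBX site. Windows were given for 20 of the 39 HOX genes, 26 distinct ones in all. HOXB9 was among the genes with no entry, and so were HOXB4, HOXC6 and most of HOXB. CCAAT occurred in 17 of the 26 windows (65.4%), against 34.6% of the 34943 distinct windows of all genes, and GGGCGG in 13, against 44.9% of all. TATAAA occurred in 5 (19.2%, against 11.6%) and TGATNNAT in 3 (11.5%, against 7.42%), those of HOXA2, HOXB1 and HOXD11. TGANTCA, the AP-1 site, TGACGTCA, the CREB site, and AGGTCA, the core of retinoic acid receptor sites, matched in none of the 26, against 7.72%, 1.84% and 13.8% of all windows. The HOX windows had a median GC content of 58.0% and a median of 22.5 CpG dinucleotides, beside 58.7% and 14 for all windows. Several of the windows belong to 1 gene, HOXA3 with 7, and the letters say nothing of which factors were bound in these cells.

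The HOXB cluster held the longest run of genes below control under CAN, from HOXB1 to HOXB8. The stretch from HOXB2 to HOXB8 was not among the lists fixed beforehand, and it leaves out HOXB1, at -0.64. Of the 7 genes from HOXB2 to HOXB8, 6 were at least 1.5-fold lower, with a median log2 difference of -2.06, and HOXB8 was 1.31-fold lower. Under OA 3 of the 7 passed 1.5-fold, all lower, with a median of -0.56. Over the whole cluster, 8 of 10 genes were lower and 1 higher under CAN (median -1.43), and 3 were lower and 2 higher under OA (median -0.44). Of all genes, 34.1% were lower and 27.5% higher under CAN. Under OA 28.8% of all genes were lower and 28.1% higher, so the OA counts of the cluster lay near those shares. Intensities below are in arbitrary scanner units before scaling, and the ± of a log2 difference is the SD expected from spots of like brightness on the same arrays, which covers spot noise only.

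HOXB4, a regulator of blood stem cell expansion, read 6400 in control, 457 under CAN and 3721 under OA. CAN was the low array by far, with a log2 difference of -3.67 ± 0.09 (12.7-fold), against -1.04 ± 0.07 (2.05-fold) for OA. Its neighbour HOXB6 read 18316, 2241 and 16448 on the control, CAN and OA arrays. That is 7.43-fold lower under CAN and 1.33-fold lower under OA, the latter within 1.5-fold. HOXB5, which acts in gut nerve and vessel development, read 6167, 1179 and 4992, or 4.75-fold and 1.47-fold lower. HOXB2, a hindbrain gene, read 21563, 4710 and 18496, or 4.16-fold and 1.39-fold lower. It had another probe at 871, 175 and 518, lower by 4.52-fold under CAN and by 2.01-fold under OA. Both HOXB2 probes thus put CAN below OA and OA below control, but only the dimmer one passed 1.5-fold for OA.

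HOXB3 read 327, 95.4 and 334 on the control, CAN and OA arrays, so only CAN cells were low (3.11-fold, log2 -1.64 ± 0.15). HOXB7, often raised in carcinomas, read 1008, 459 and 652. It was lower by similar amounts under both agents, 1.99-fold and 1.84-fold, and the agents differed by 0.11 ± 0.10. HOXB8, a gene of myeloid progenitors, read 645, 447 and 467, and was 1.31-fold lower under CAN and 1.65-fold lower under OA. HOXB1, the gene of a single hindbrain segment, was dim at 62.9, 36.5 and 80.6. Its CAN difference of -0.64 ± 0.36 just passed 1.5-fold and did not in 4 of 11 processing settings.

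Next to this run, HOXB9 went the other way. HOXB9, a trunk-patterning gene also expressed in several carcinomas, read 556 in control, 11034 under CAN and 2365 under OA. The 3 arrays were far apart, with log2 differences of 4.45 ± 0.09 (21.9-fold higher) and 1.83 ± 0.08 (3.56-fold higher). OA cells were 6.13-fold below CAN cells, so HOXB9 was 1 of the 2 HOX genes lower in that direct comparison, with HOXD3. HOXB13, the prostate and hindgut gene at the far end of the cluster, read 218, 84.7 and 434. It was 2.34-fold lower under CAN and 1.67-fold higher under OA, a gap of 1.97 ± 0.16 between the agents. The HOXB9 values kept their direction and side of 1.5-fold in all 12 settings, from 4.31 to 4.52 for CAN.

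**Figure D3:**
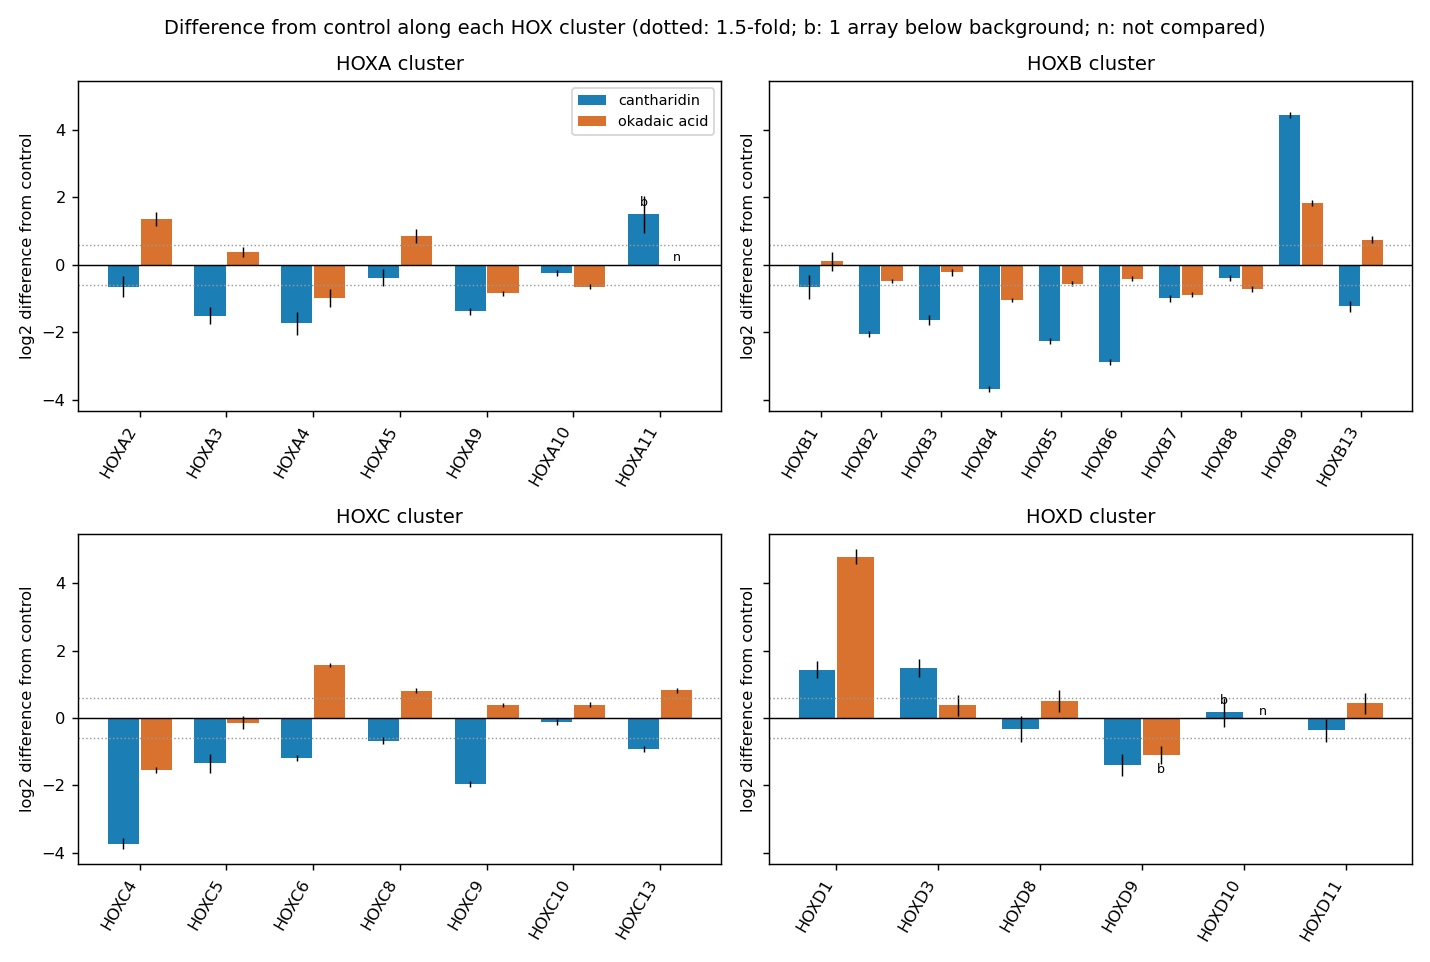
Log2 difference from control of 30 HOX genes detected on at least 1 array, in cluster order, with bars for cantharidin (blue) and okadaic acid (orange). Error bars are 1 SD expected from the replicate spots of probes of like brightness. A b marks a value with 1 array not well above background, an n a gene not compared, and the dotted lines 1.5-fold. The blue bars run below 0 from HOXB1 to HOXB8, with that of HOXB8 inside the dotted lines, and rise to 4.45 at HOXB9, and the highest orange bar is HOXD1 at 4.78.

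In the HOXC cluster, all 7 detected genes were below control under CAN, 6 of them by at least 1.5-fold, with a median of -1.18. Under OA 3 were higher and 1 lower, with a median of 0.40. Set directly against CAN, OA cells had 6 of 7 higher and none lower. Of all genes, 34.1% were lower and 27.5% higher under CAN, and 28.8% lower and 28.1% higher under OA. Between the agents, 29.5% of all genes were higher and 22.3% lower in OA than in CAN cells. HOXC4, expressed in germinal centre B cells and in the neck region of embryos, read 1258 in control, 86.4 under CAN and 517 under OA. It was 13.2-fold lower under CAN (-3.73 ± 0.16), apart from HOXB4 by less than the spot noise, and 2.90-fold lower under OA. With normexp the CAN differences of HOXC4 and HOXB4 were -2.88 and -3.51. HOXC5, which shares its RefSeq start site with HOXC4, was dim at 110, 39.4 and 119. It was 2.54-fold lower under CAN, while its OA difference of -0.13 ± 0.20 lay within the spot noise.

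HOXC6, HOXC8 and HOXC13 were below control under CAN and above it under OA, each by at least 1.5-fold. HOXC6, a gene of the thoracic trunk that is raised in prostate cancer, read 5748, 2306 and 20358 on the control, CAN and OA arrays. It was 2.26-fold lower and 2.97-fold higher, which put the agents 6.72-fold apart. HOXC8, which patterns motor neurons of the forelimb level, read 688, 394 and 1439. It was 1.59-fold lower and 1.75-fold higher, close to the threshold on the CAN side. HOXC13, a regulator of hair keratins, read 2843, 1361 and 5978, or 1.90-fold lower and 1.76-fold higher. All 3 genes also passed 1.5-fold between the agents in each of the 12 settings.

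HOXC9, which sets thoracic motor neuron identity, read 7501, 1752 and 11695. CAN cells were 3.89-fold lower and OA cells 1.31-fold higher. HOXC10, its lumbar counterpart, read 3397, 2832 and 5332 and stayed within 1.5-fold of control under both agents, at -0.12 ± 0.09 and 0.40 ± 0.07. HOXC10 was thus the 1 HOXC gene of the 7 not called under CAN.

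The HOXA genes went both ways under OA. Of 7 compared, 3 were higher, HOXA2 and HOXA5 among them, and HOXA4, HOXA9 and HOXA10 were lower. Their median was 0.38, and of all genes 28.1% were higher and 28.8% lower. Under CAN 4 of 8 HOXA genes were lower and 1 higher, beside 34.1% lower and 27.5% higher of all genes. The HOXA median under CAN was -0.51. It was -0.28 with normexp and -1.38 among signals at least 3 times the lowest detected one. HOXA2, which patterns the hindbrain and second pharyngeal arch, read 66.9 in control, 38.8 under CAN and 203 under OA. It was 2.55-fold higher under OA (1.35 ± 0.21) and 1.57-fold lower under CAN (-0.65 ± 0.32), a dim value that passed 1.5-fold in 8 of 11 settings. HOXA5, a lung-patterning gene, read 85.8, 60.03 and 185. It was 1.81-fold higher under OA, and its CAN difference of -0.38 ± 0.26 was within 1.5-fold.

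HOXA3, required for thymus and parathyroid, read 147, 47.1 and 229, and was 2.84-fold lower under CAN only. HOXA4 read 116, 31.7 and 70.1, with control the high array and dim signals on the other arrays. It was 3.33-fold lower under CAN (-1.74 ± 0.33) and 1.98-fold lower under OA (-0.98 ± 0.26). Over the settings these differences shrank to as little as -0.77 and -0.58, and the OA one passed 1.5-fold in 11 of 12. HOXA9, a driver of acute leukaemia, read 838, 293 and 557. Its log2 differences were -1.38 ± 0.10 and -0.84 ± 0.08. HOXA10, a uterine and blood gene, read 1284, 981 and 982. Its OA difference of -0.64 ± 0.08 passed 1.5-fold, and its CAN difference of -0.25 ± 0.09 did not. HOXA9 and HOXA10 each had another probe that no array showed well above background. When the median of a gene's probes stood for it, the OA difference of HOXA9 was -0.20 and that of HOXA10 turned to 0.25.

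HOXA11, a limb and uterine gene, was well above background only on the CAN array, at 29.2, with 11.4 on the control and 32.7 on the OA array. It counts as 1 of the 4 genes higher under CAN, but its signal lay below the lowest detected control signal, so no fold is given. Setting dim signals to that floor turned its difference to -0.12.

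The HOXD genes were dim, and HOXD1 was the exception under OA. HOXD1, which acts in pain-sensing neurons and has the window with 4 GC boxes shown earlier, read 58.6 in control, 144 under CAN and 1921 under OA. Its log2 difference was 4.78 ± 0.22 (27.5-fold) for OA, the largest rise among the compared HOX genes, and 1.43 ± 0.25 (2.70-fold) for CAN. The HOXD1 probe was printed in 10 spots per array, which gives its measuring error directly. Its own spots had log2 SDs of 0.32 on the control, 0.07 on the CAN and 0.04 on the OA array. The ± of its differences comes instead from probes of like brightness. The 10 control spots ran from 38.3 to 75.3, the 8 usable CAN spots from 131 to 153, and the 9 usable OA spots from 1860 to 2010. The 3 sets did not overlap, which concerns spots of 1 array each and not separate cultures. Across the 12 settings the OA difference ranged from 3.51 to 5.35.

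**Figure D4:**
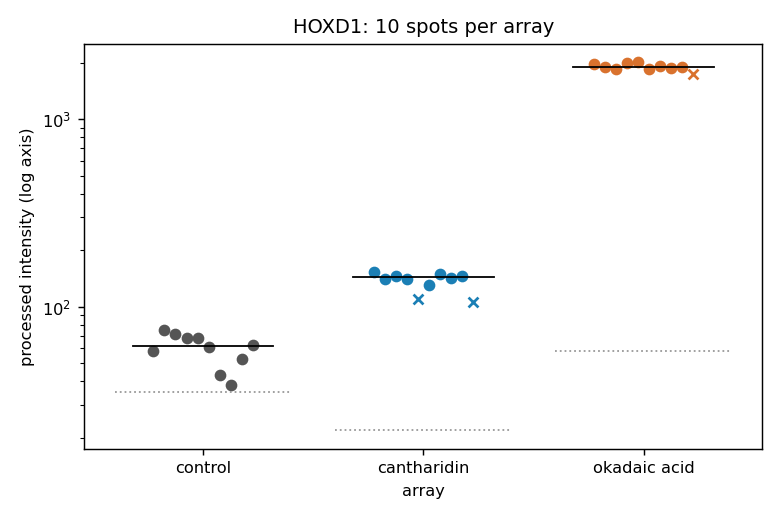
Processed intensity (log axis) of the HOXD1 spots on each array, with a line at the median of the used spots, crosses for spots left out as outliers by the scanner software, and a dotted line at the lowest signal well above background. The control spots lie between 38.3 and 75.3, the used cantharidin spots between 131 and 153, and the used okadaic acid spots between 1860 and 2010.

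HOXD3, which lies beside HOXD1, read 51.7, 131 and 79.9. It was 2.79-fold higher under CAN, 0.37 ± 0.31 above control under OA, and 2.15-fold lower in OA than in CAN cells. HOXD9 read 106 in control and 36.6 under CAN, and was not well above background under OA at 59.0. It was 2.62-fold lower under CAN and at least 2.14-fold lower under OA. The other HOXD9 probe read 44.0, 46.6 and 38.6, the last not well above background, and differed by 0.22 under CAN, so the probes disagreed. With normexp background correction the CAN difference of HOXD9 turned to 0.12.

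HOXD8 read 44.1, 32.0 and 74.1, and HOXD11 read 56.1, 39.7 and 90.2, both within 1.5-fold of control under each agent. HOXD10 was well above background only under CAN, at 31.8, with 31.1 on the control and 41.2 on the OA array. Of the differences of these 3 genes from control, the largest against its noise was that of HOXD8 under OA, at 0.49 ± 0.33. HOXD8 and HOXD11 were higher in OA than in CAN cells, by 0.82 ± 0.37 and 0.79 ± 0.33. Each passed 1.5-fold in 9 of 11 settings, with lowest values of 0.22 and 0.13. Their OA signals lay near the lowest detected signal of that array, 58.0, so these differences are weak.

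By position along the clusters, the central genes (numbers 4 to 8) were lower under CAN in 9 of 12 cases and higher in none, with a median of -1.26. Anterior genes (1 to 3) were lower in 5 of 8 and higher in 2, with a median of -0.65. Posterior genes (9 to 13) were lower in 5 of 11 and higher in 2, with a median of -0.36. Under OA none of 8 anterior genes was lower and 3 were higher (median 0.38), 5 of 12 central genes were lower and 3 higher (median -0.49), and 3 of 9 posterior genes went each way (median 0.40). Over all genes 34.1% were lower and 27.5% higher under CAN, and 28.8% lower and 28.1% higher under OA. The medians by class are descriptions and the differences between the classes were not tested.

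The 2 agents were each compared with the same control array, so their differences share its error. Read side by side, 6 HOX genes were at least 1.5-fold lower under both agents (HOXA4, HOXA9, HOXB4, HOXB7, HOXC4 and HOXD9) and 2 were higher under both (HOXB9 and HOXD1). Of the 16049 genes compared under both agents, 21.1% were lower under both and 17.3% higher under both. HOXA2, HOXB13, HOXC6, HOXC8 and HOXC13 were lower under CAN and higher under OA. They were 5 of the 29 HOX genes compared under both agents (17.2%), and 581 of all genes (3.62%) went opposite ways. A further 8 were lower under CAN and within 1.5-fold under OA: HOXA3, HOXB1, HOXB2, HOXB3, HOXB5, HOXB6, HOXC5 and HOXC9. HOXC10, HOXD8, HOXD10 and HOXD11 were called under neither agent, HOXD10 being compared only for CAN. The shares of all genes lower under CAN only, or called under neither agent, were not counted. The direct comparison uses the control array's values only in the choice of the probe that stands for a gene. There, 25 of 31 HOX genes were higher by any amount in OA than in CAN cells, as were 8997 of all 16200 genes (55.5%).

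The counts for the related gene lists are to be read beside the shares of all genes, 27.5% higher and 34.1% lower under CAN and 28.1% higher and 28.8% lower under OA. Among the TALE homeobox cofactors of HOX proteins, 8 of 9 had a probe, and 3 were higher and none lower under OA (median 0.32). Under CAN 4 were higher and 2 lower (median 0.37). PBX4, a testis-expressed member of the PBX family, read 662 in control, 1192 under CAN and 3692 under OA, or 1.98-fold and 4.67-fold higher. MEIS1, the partner of HOXA9 in leukaemia, read 57.7, 46.7 and 289, with OA alone high (log2 difference 2.07). PKNOX1 read 354, 1179 and 657, or 3.66-fold higher under CAN and 1.55-fold under OA. MEIS2 read 106, 253 and 155, with a rise under CAN only (2.63-fold).

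Of the ParaHox and cluster-flanking homeobox genes, 5 of 8 were compared, and 3 were lower under CAN and 1 under OA, with medians of -0.81 and -0.35. CDX4, an activator of HOX genes in the posterior embryo, read 1954, 901 and 1383, and was lower by 1.97-fold and 1.69-fold. EVX1, which flanks the HOXA cluster, read 867, 448 and 753, and was 1.76-fold lower under CAN and 1.37-fold lower under OA. PDX1, the pancreatic ParaHox gene, was not well above background on any of the 3 arrays.

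Non-coding RNAs of the clusters, listed with the small PRAC genes beside HOXB13, were matched by accession. Of the 20 listed, 6 had a probe and 4 could be compared, 3 of them non-coding. HOXA11-AS, the antisense transcript of HOXA11, read 40.4 in control, 254 under CAN and 1348 under OA. Both agents were above control, by 6.92-fold and 28.0-fold, while the HOXA11 probe itself was not well above background in control or OA cells. HOTAIR, a HOXC antisense RNA that binds Polycomb proteins, read 122, 34.6 and 13.4, the last not well above background. It was 3.20-fold lower under CAN and at least 2.50-fold lower under OA. HAGLR, from the HOXD cluster, read 78.9, 109 and 108 and was 1.53-fold higher under CAN, and PRAC1, which codes for a small protein, stayed within 1.5-fold under both.

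Of 27 Polycomb genes, 8 were higher (29.6%) and 9 lower (33.3%) under CAN, near the shares of all genes, with a median of -0.19. Under OA 10 were higher and 10 lower (37.0% each), with a median of 0.01. EZH2, the enzyme that writes the Polycomb methyl mark, read 729, 2964 and 4253, or 4.47-fold and 4.89-fold higher. RING1, a ubiquitin ligase of the other Polycomb complex, read 1405, 2989 and 10259, or 2.34-fold and 6.12-fold higher. CBX8, which reads the mark, read 524, 103 and 1345, and was 4.63-fold lower under CAN and 2.15-fold higher under OA. SCMH1, another Polycomb protein, read 433, 256 and 74.98, or 1.54-fold and 6.90-fold lower.

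The opposing trithorax group with the demethylases that remove the Polycomb mark had more genes higher than lower under both agents, 8 of 14 higher (57.1%) and 3 lower (21.4%) in each case, with medians of 1.20 and 0.93. KDM6A, 1 of those demethylases, read 277, 1663 and 1735, or 6.61-fold and 5.25-fold higher. KMT2C, an enhancer methyltransferase, read 138, 374 and 1689, or 2.98-fold and 10.3-fold higher. KMT2A, the trithorax homologue that maintains HOX expression in blood, read 582, 1233 and 2131, or 2.33-fold and 3.07-fold higher. PSIP1, which tethers KMT2A to chromatin, read 1591, 176 and 201, or 8.22-fold and 9.46-fold lower. ASH2L, a shared subunit of these methyltransferases, read 2084, 589 and 908, or 3.22-fold and 2.74-fold lower. KMT2A is outside the 3 genes of the list with the largest differences and was named after its values were seen.

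In the retinoic acid pathway 6 of 16 genes were lower (37.5%) and 1 higher (6.25%) under each agent, with medians of -0.48 and -0.44. The share lower lay near that of all genes under CAN. ALDH1A3, which makes retinoic acid, read 6692, 566 and 1256, or 10.7-fold and 6.36-fold lower. RARG, a retinoic acid receptor, read 2562, 266 and 590, or 8.75-fold and 5.18-fold lower. DHRS3, which turns retinal back to retinol, read 28664, 3509 and 3819, or 7.42-fold and 8.96-fold lower. RDH10, which catalyses the opposite step, read 167, 234 and 2671, and was 1.54-fold higher under CAN and 13.4-fold higher under OA. All 3 lists of regulators held members changed under both agents, but such genes were common. Of all genes compared under both agents, 21.1% were lower under both and 17.3% higher under both. None of the values of the regulators was tested as a cause of the HOX values.

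**Figure D5:**
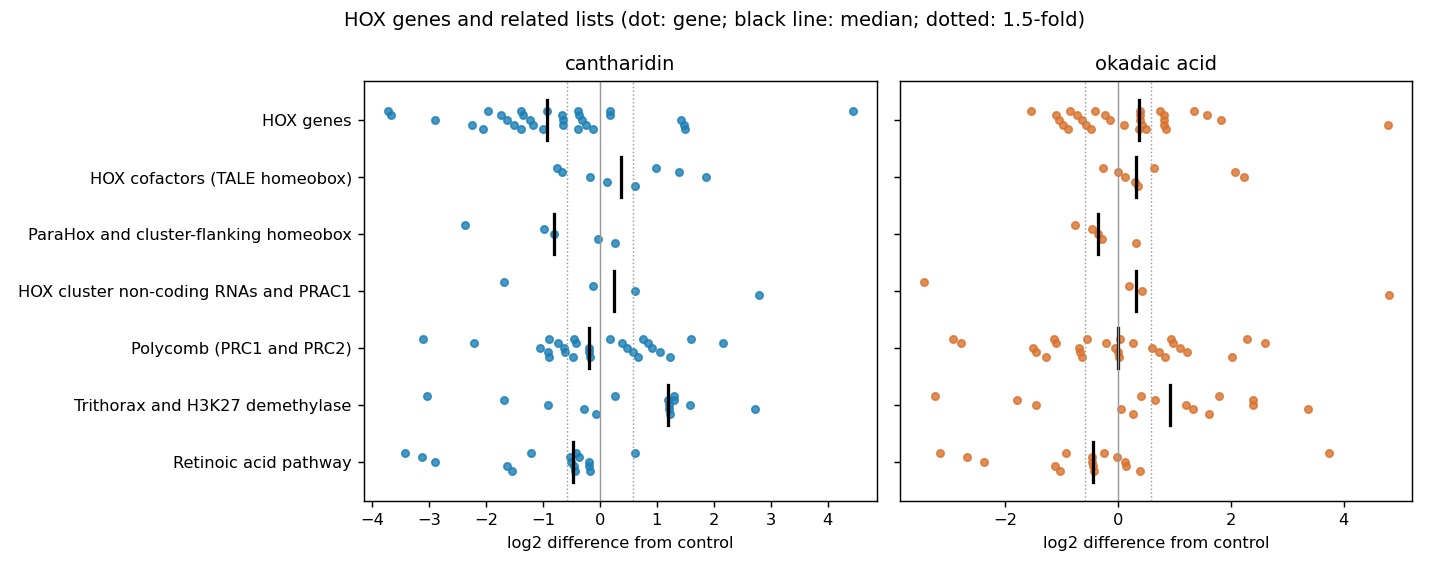
Log2 difference from control for each compared gene (dot) of the HOX genes and the 6 related lists, under cantharidin (left, blue) and okadaic acid (right, orange), with a black line at the median and dotted lines at 1.5-fold. The HOX median is -0.92 under cantharidin and 0.37 under okadaic acid, and the trithorax list has the highest median of the 7 under both agents, at 1.20 and 0.93.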

How the data were processed

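Gene expression was measured on 3 Agilent 1-colour arrays of PANC-1 RNA, 1 each for control, cantharidin and okadaic acid, grouped by the sample titles. The authors deposited scanner output made with Feature Extraction 11.0.1.1 (annotation build hg19). Its processed intensity is, per the file headers, corrected for background and for trends across the array, and the arrays were not scaled to each other. Deposited flags mark outlier spots, saturated spots and spots well above background. Normalized log2 values of 30923 probes were deposited by the authors as well, by a method not given in the sources used here. Each column of that table had an r of at least 0.998 with log2 intensities of its array, and it served as an alternative source of values. There was 1 scan for all arrays. How many arrays there were limits the precision of each value.

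Spots with outlier flags were left out and log2 processed intensities averaged per probe (34041 probes), and the 75th percentile of each array was subtracted (intensities of 784, 713 and 936 for control, cantharidin and okadaic acid). Accessions, without versions, named 25705 probes through RefSeq of GRCh38.p14. The probe with the highest mean log2 signal stood for its gene. Detection meant the well-above-background flag in most spots, and a call meant 1.5-fold, the threshold the study used. With 1 dim array the fold is "at least", with the dim signal raised to the lowest detected signal of that array where it lay below it. Spot SD came from the 100 probes nearest in brightness among 999 probes with 10 spots. Every HOX gene was to be named, and at most 3 genes of each other list per comparison, those with the largest difference measured on both arrays. The values of 1 HOX gene and 1 gene of another list are not reported here, though the counts and medians include them. The members and lists were chosen with earlier results of these data known. Normexp correction (offset 50) used median spot signals, in place of the mean signals planned. Other alternatives are given with the limits of the results. The calling step was tested on simulated data. R 4.3.3, limma 3.58.1, Python 3.11.15, numpy 2.4.6, pandas 2.3.3 and matplotlib 3.10.9 were used.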

Additional observations from a re-analysis of the deposited data

Results flagged for a closer look

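For 5 HOX genes the 2 agents went opposite ways, each by at least 1.5-fold, with lower signal under cantharidin and higher signal under okadaic acid. The log2 difference of okadaic acid minus cantharidin was 2.00 for HOXA2, 1.97 for HOXB13, 2.75 for HOXC6, 1.48 for HOXC8 and 1.74 for HOXC13. These are 5 of the 29 HOX genes compared under both agents (17.2%), beside 581 of 16049 genes in all (3.62%) that went opposite ways. With 1 array per agent this difference was not tested, and both agents were set against the same control array. HOXA2 was the dimmest of these genes, at 66.9 in control, and its cantharidin side passed 1.5-fold in 8 of 11 processing settings. The cantharidin side of HOXC8 and the okadaic acid side of HOXB13 each passed it in 11 of 12.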

How the results depend on the processing

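Each count and median was recomputed under other background corrections, scalings, filters, probe rules and thresholds. Of 63 called gene values, 44 stayed on their side of 1.5-fold in every setting that gave a value, 16 left it without a change of sign, and 3 changed sign: HOXA10 under okadaic acid (0.25 with the median over probes), HOXA11 under cantharidin (-0.12 with dim signals at the array floor) and HOXD9 under cantharidin (0.12 with normexp). The cause was not tested. The median under cantharidin (-0.92) was -0.57 with normexp, -0.66 without a filter, -0.67 with the median over probes and -1.28 for signals at least 3 times the floor. The median under okadaic acid (0.37) was 0.0093 with normexp, 0.25 scaled to the median, 0.28 with quantile normalization, 0.63 without scaling, 0.10 with every probe counted, 0.10 without HOXB9 and HOXD1, and -0.13 for signals at least 3 times the floor. The median of okadaic acid against cantharidin (1.21) was 0.43 with normexp, 1.06 scaled to the median, 0.97 with quantile normalization, 1.60 without scaling, 0.82 without a filter and 1.58 for signals at least 3 times the floor. Under okadaic acid 15 genes were higher without scaling and 4 at 2-fold (9 as reported), with 7 to 11 in the other settings, and 3 were lower at 2-fold (8 as reported), with 6 to 10 in the others. Without HOXB9 and HOXD1, 2 genes were higher under cantharidin (4 as reported) and 1 was lower in okadaic acid than in cantharidin cells (2 as reported), as it was with normexp. The number lower under cantharidin ranged from 14 to 21. Over the settings the cluster medians under cantharidin ran from -1.38 to -0.28 in HOXA, -1.68 to -1.03 in HOXB, -1.32 to -0.87 in HOXC and -0.21 to 1.43 in HOXD, and under okadaic acid from 0.26 to 0.64, -0.56 to -0.19, 0.27 to 0.65 and 0.14 to 1.84. Without scaling the median of all genes was -0.30 under cantharidin, 0.26 under okadaic acid and 0.52 between the agents. The floor, the brightness filter and the omission of HOXB9 and HOXD1 were chosen after seeing the data. No paired analysis was possible because each group holds 1 array, and no replicate could be left out. Signals near background limit the HOXA and HOXD values most, since spot SDs there reach 0.56.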
